A study of Saccharomyces cerevisiae with 5 samples.

Results

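The genes described here are 55 genes of protein glycosylation and glycosylphosphatidylinositol (GPI) anchor synthesis in Saccharomyces cerevisiae. The rule lists them by name and uses no measured value, although it was written with earlier results of these data known. They fall into 7 groups by role: the oligosaccharyltransferase, the dolichol-linked sugar precursor, GDP-mannose supply, the protein O-mannosyltransferases, the mannosyltransferases of the Golgi, the synthesis of the GPI anchor, and the transamidase that attaches it. Of the 55, 54 had an annotated spot among the 5379 named genes of the array, and all 54 held a value on every array, so none was lost for want of a value. The remaining gene, STT3, which encodes the catalytic subunit of the oligosaccharyltransferase, is not analysed here. Exponentially growing S288C cells, in rich medium with glucose at 25 °C, received copper sulfate to 10 mM for 2 h, and control cells of the same strain grew for the same 2 h without it. PolyA RNA from both was labelled, with Cy5 for treated and Cy3 for untreated cells, and hybridised together on 3 two-colour arrays that the labels call independent biological samples. Whether each array had a control culture of its own is not stated. The p-values reflect how far these 3 arrays differ and nothing wider. For each gene the variance behind them is drawn partly from all tested genes, so close arrays alone do not give a low p.

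N-glycosylation starts at the membrane of the endoplasmic reticulum, where ALG enzymes build a branched oligosaccharide on the lipid dolichol and the oligosaccharyltransferase moves it to asparagines of proteins entering the secretory pathway. O-mannosylation also starts there, when PMT enzymes add mannose to serines and threonines, and both kinds of sugar chain are lengthened with mannose in the Golgi. GPI anchors are built on phosphatidylinositol by a separate enzyme series and joined to proteins by the transamidase. In yeast these pathways supply the mannoproteins of the cell wall, many of which carry all 3 modifications.

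A positive log2 ratio means more signal from copper-treated than from untreated cells. That direction is likely, since the labels list the treated sample as the first channel, but the table does not state it, and every rise and fall below would change places if it were the other. CUP1-1, the copper metallothionein gene, had a mean log2 ratio of 4.33 in this direction. Dyes were never exchanged, so the response of a gene to copper and any preference of its spot for one dye cannot be told apart. Because ratios are relative within an array, a change in total mRNA per cell cannot be told apart either. Between 5264 and 5952 of 6912 spots held a value on the scans used, except the low-power scan of replicate 2. That scan held 2853 (41.3%) and was averaged with the high-power scan where both had a value. Across the 4824 tested genes, Pearson's correlation of log2 ratios between arrays was 0.693, 0.651 and 0.606, as a description over genes that share their arrays. The number of arrays limits the precision.

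The question was which transcripts of these pathways differ between treated and untreated cells. Of the 54 genes, 8 rose, 2 fell and 44 did not pass an adjusted p of 0.05 (limma, mean log2 ratio against 0, two-sided, Benjamini-Hochberg adjustment over 4824 genes). The genes that rose were ALG12, OST4, PMT2, OST5, PMT5, GPI11, GPI1 and GPI14, and those that fell were GPI15 and GPI18. The share that rose, 14.8%, is close to the 11.5% of all tested genes that rose, and the share that fell, 3.7%, stands beside 12.0% of all tested genes. In either direction 23.5% of all tested genes passed. None of the 54 changed by 2-fold or more: the mean log2 ratios ran from -0.67 to 0.90. At an unadjusted p under 0.05, 16 stood above 0 (29.6%, against 18.4% of all tested genes) and 3 below (5.56%, against 21.8%).

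The whole list lay slightly above the other genes of the array. Its median log2 ratio was 0.21, against -0.04 over all tested genes, and 72.2% of its genes had a mean above 0, against 45.5%. The medians of the list were 0.15, 0.26 and 0.19 on arrays 1, 2 and 3, against -0.03, -0.08 and -0.01 for all tested genes. A ratio above 0 on all 3 arrays was held by 28 of the 54 (51.9%), against 27.3% of all tested genes, and a ratio below 0 on all 3 arrays by 7 (13.0%), against 32.1%. These shares describe the list, whose genes share arrays and labelled samples.

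The oligosaccharyltransferase held 2 of the rises and 0 falls among 8 tested subunits. The share that rose was 25.0%, against 11.5% of all tested genes. OST4, which encodes a tiny membrane subunit that helps to bring in Ost3 or Ost6, had log2 ratios of 1.11, 1.01 and 0.51 on arrays 1, 2 and 3. Its mean of 0.88 ± 0.32 (SD, n = 3) is a 1.84-fold ratio (limma adjusted p = 0.0124). All 3 arrays stood above 0, the third lower than the other two. OST5, a small subunit that sits beside Ost1, had 0.77, 0.78 and 0.61, a mean of 0.72 ± 0.09 and a 1.64-fold ratio (limma adjusted p = 0.0140). Its arrays lay closer together than those of OST4.

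The other 6 measured subunits did not pass. OST2, the yeast counterpart of mammalian DAD1, had 0.28, 0.78 and 0.34 (limma adjusted p = 0.0683). WBP1 and OST1, both membrane subunits, had means of 0.31 ± 0.21 and 0.29 ± 0.21, with every array above 0. SWP1, their partner, had 0.01, 0.21 and 0.21. OST3 and OST6 are alternative subunits with a thioredoxin-like domain, and either may be present in the complex. OST3 had -0.09, 0.15 and 0.39 and OST6 had -0.33, 0.15 and 0.10, so each had arrays on both sides of 0. The 95% interval of the mean was -0.21 to 0.51 for OST3 and -0.39 to 0.34 for OST6. The median of the 8 subunits was 0.30. The call of OST5 was lost without replicate 1 (limma adjusted p = 0.0674, in a range over 14 alternatives that began at 0.00515), and that of OST4 with a correction for gene length described further on.

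**Figure D1:**
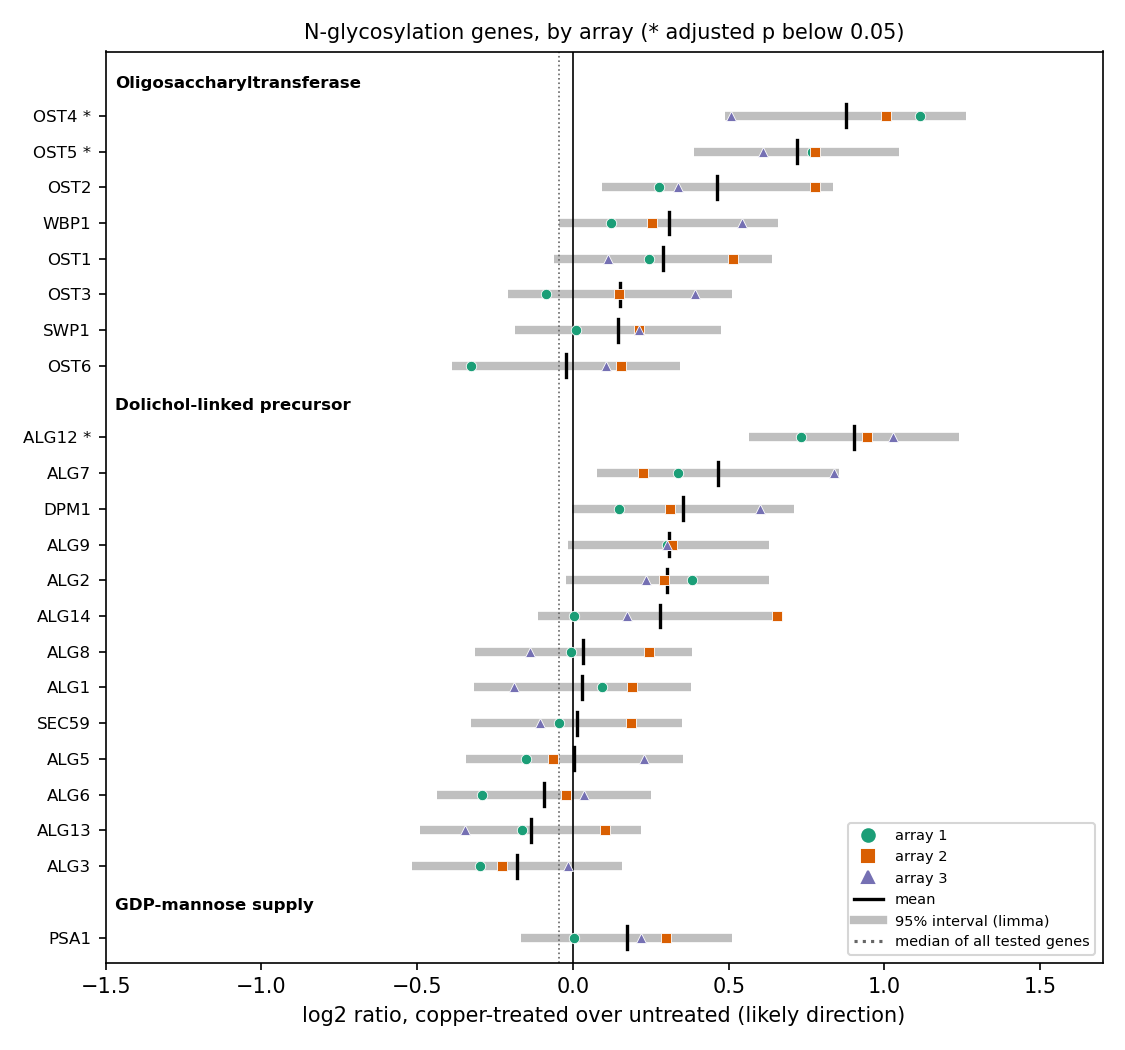
Log2 ratios (horizontal axis, copper-treated over untreated) of the genes of the oligosaccharyltransferase, the dolichol-linked precursor and GDP-mannose supply. Coloured points are the 3 arrays, black bars their mean, grey bars the 95% interval from limma, the dotted line the median of all tested genes, and an asterisk marks an adjusted p below 0.05. ALG12, OST4 and OST5 stand at the top of their groups with all arrays above 0, and ALG8, ALG1, SEC59 and ALG5 lie near 0.

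Of the 13 genes that build the dolichol-linked precursor, 1 rose (7.7%, against 11.5% of all tested genes) and 0 fell (against 12.0%). The group median was 0.03. The gene that rose was ALG12, a mannosyltransferase that works late, on the lumenal side of the membrane. It had 0.73, 0.94 and 1.03 on the 3 arrays, a mean of 0.90 ± 0.15 (SD, n = 3) and a 1.87-fold ratio (limma adjusted p = 0.00667), the highest mean of the 54 genes. It passed in 14 of 14 alternatives, with adjusted p from 0.00188 to 0.0231.

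The neighbours of ALG12 in the pathway lay lower. ALG9, the mannosyltransferase that acts before and after ALG12, had 0.30, 0.32 and 0.30, which agree closely, and did not pass (limma adjusted p = 0.140). ALG3, which adds the lumenal mannose preceding those, had the lowest mean of the group, -0.18 ± 0.15, with -0.30, -0.23 and -0.02. The enzymes that use glucose also lay near 0: ALG6 had a mean of -0.09 and ALG8 of 0.03, and ALG5, which makes dolichol phosphate glucose, of 0.0042. The difference between ALG12 and these genes was not tested.

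Genes of the cytosolic steps did not pass either. ALG7, the target of tunicamycin, which puts the first sugar on dolichol phosphate, had 0.34, 0.22 and 0.84 (limma adjusted p = 0.0770). ALG13 and ALG14 form the enzyme that adds the next sugar, and had means of -0.14 ± 0.23 and 0.28 ± 0.34. Of the mannosyltransferases that follow, ALG1 had a mean of 0.03 and ALG2 of 0.30 ± 0.07. DPM1, which makes the dolichol phosphate mannose used in N-glycosylation, O-mannosylation and GPI synthesis alike, had 0.15, 0.31 and 0.60 (limma adjusted p = 0.126). SEC59, the dolichol kinase, had a mean of 0.01, and PSA1, which makes GDP-mannose, had 0.00, 0.30 and 0.22.

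All 6 protein O-mannosyltransferase genes had a ratio above 0 on all 3 arrays, as did 27.3% of all tested genes. The median of the 6 was 0.44. Of the 6, 2 passed, both upward (33.3%, against 11.5% of all tested genes that rose). PMT2, whose product pairs with Pmt1 in the main enzyme complex, had 0.92, 0.92 and 0.75, a mean of 0.86 ± 0.10 (SD, n = 3) and a 1.82-fold ratio (limma adjusted p = 0.00717). It passed in 14 of 14 alternatives, with adjusted p from 0.00177 to 0.0261. PMT5, whose product pairs with Pmt3, had 0.51, 0.38 and 1.14, a mean of 0.68 ± 0.41 with a 95% interval of 0.26 to 1.10 (limma adjusted p = 0.0332). Array 3 stood well above the other two, and the call was lost without replicate 3 (limma adjusted p = 0.104, in a range over 14 alternatives that began at 0.0187).

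The partners of these genes did not pass. PMT1 had 0.36, 0.40 and 0.44, which lie close together around a mean of 0.40 (limma adjusted p = 0.0711). PMT3 had 0.31, 0.31 and 0.81 (limma adjusted p = 0.0648), with array 3 highest, as for PMT5. PMT6 had 0.16, 0.50 and 0.02. PMT4, which acts on membrane-bound proteins and pairs with itself, had 0.36, 0.03 and 0.25, the lowest mean of the group at 0.21 ± 0.17; its value on array 2 came from the low-power scan alone. The PMT genes form a family of related sequence, as do MNN2 and MNN5 and the genes of the KRE2 family. The probe sequences were not used here, and how far the spots tell relatives apart was not tested.

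In the Golgi, 0 of 13 mannosyltransferase genes passed in either direction by limma, against 23.5% of all tested genes. An unadjusted p under 0.05 was held by 3 of the 13, all above 0. Of all tested genes, 40.2% had such a p in either direction, and 18.4% had it above 0. The group median was 0.21. It was 0.15 and 0.26 on arrays 1 and 2, and -0.03 on array 3. KTR1, an enzyme of the KRE2 family that extends O-linked and N-linked chains, had the highest mean, 0.49 ± 0.31, from 0.29, 0.33 and 0.84 (limma adjusted p = 0.0651). MNN1, which caps chains with terminal mannose, had 0.35, 0.27 and 0.72 (limma adjusted p = 0.0692). ANP1, a subunit of a polymerase of the mannan backbone, had 0.35, 0.26 and 0.42 (limma adjusted p = 0.110). In all 3 genes every array stood above 0.

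Genes of this group had means on both sides of 0, as did the subunits that build the mannan backbone. OCH1, which starts the outer chain of N-glycans, had the lowest mean of the group at -0.28 ± 0.25, from -0.54, -0.05 and -0.25. KTR3, of the KRE2 family, and MNN10, a partner of Anp1, were also below 0 on every array, with means of -0.27 ± 0.12 and -0.13 ± 0.03. The other backbone subunits had means of -0.09 (MNN9), -0.06 (VAN1) and 0.21 (MNN11). Of the branching enzymes, MNN2 had 0.21 ± 0.20 and MNN5 0.33 ± 0.11. MNN4, needed to add mannosylphosphate, had -0.11, 0.61 and 0.30, and KRE2, the founding gene of its family, had 0.15, -0.004 and -0.09.

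**Figure D2:**
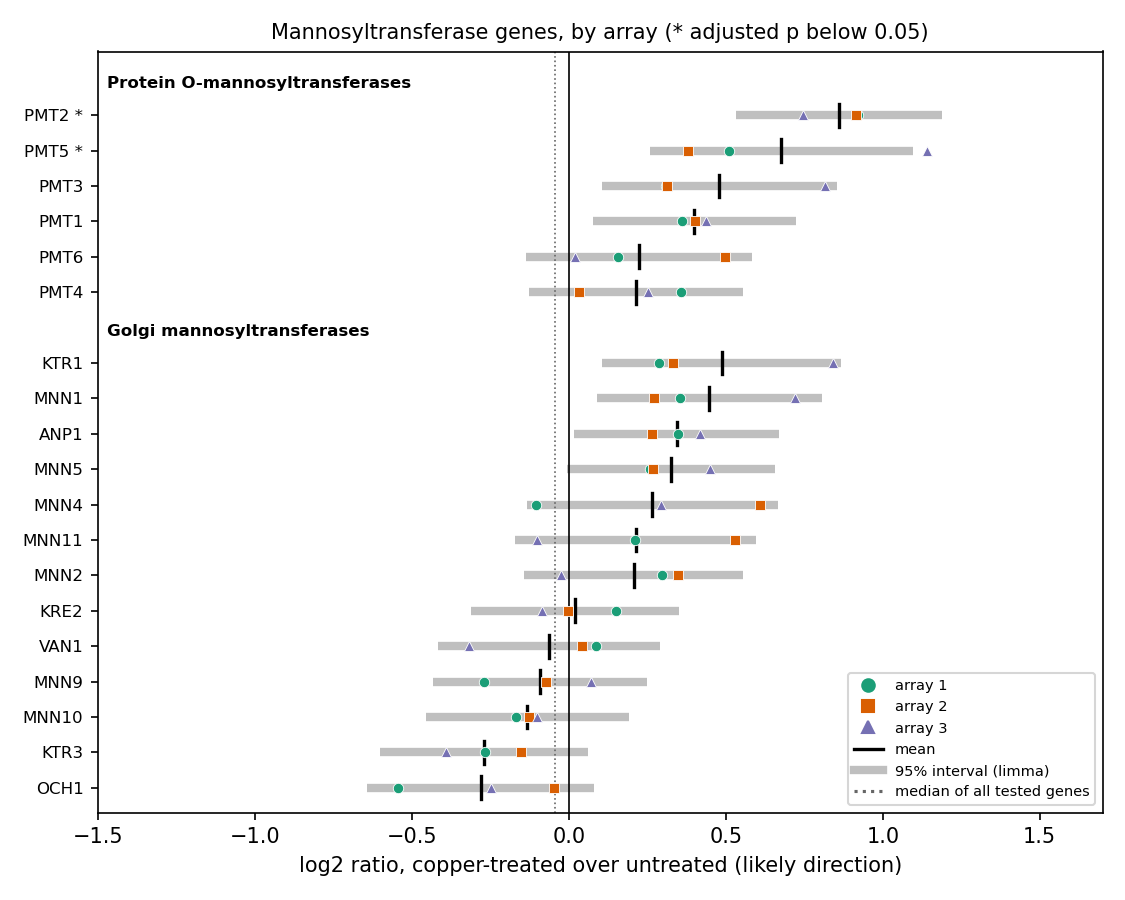
Log2 ratios (horizontal axis, copper-treated over untreated) of the protein O-mannosyltransferase genes and the Golgi mannosyltransferase genes, with points for the 3 arrays, black bars for means, grey bars for 95% intervals from limma and asterisks for an adjusted p below 0.05. All points of the 6 PMT genes lie above 0, whereas the 13 Golgi genes spread from -0.28 for OCH1 to 0.49 for KTR1 and carry no asterisk.

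GPI anchor synthesis was the group with calls in both directions. Of 10 genes, 3 rose and 2 fell, and the median was 0.25. Rises and falls were about equally common among all tested genes, at 11.5% and 12.0%, and 23.5% passed in either direction. The enzyme of the first step, which moves N-acetylglucosamine to phosphatidylinositol, held a call each way. GPI1, one of its subunits, had 0.53, 0.61 and 0.60, a mean of 0.58 ± 0.05 (SD, n = 3) with a 95% interval of 0.26 to 0.91 (limma adjusted p = 0.0239). GPI15, another subunit, had -0.87, -0.72 and -0.41, and fell by 0.67 ± 0.23 on the log2 scale (limma adjusted p = 0.0214). Further subunits, GPI2 and GPI19, had means of 0.35 ± 0.25 and 0.15 ± 0.30 and did not pass. SPT14, the catalytic subunit, which is not among the 55 genes, had -0.13, -0.51 and 0.28.

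Genes of the next steps lay on both sides of 0. GPI12, which removes the acetyl group, had -0.47, -0.40 and -0.36 and did not pass (limma adjusted p = 0.0667), although every array was below 0. GWT1, which adds an acyl chain to the inositol and is not among the 55 genes, had 0.31, 0.46 and 0.40 and did not pass (limma adjusted p = 0.0797). GPI14, which adds the first mannose, had 0.81, 0.42 and 0.44, a mean of 0.56 ± 0.22 and a 1.47-fold ratio (limma adjusted p = 0.0352). GPI18, which adds the second mannose, had -0.64, -0.57 and -0.58, and fell by 0.60 ± 0.04 on the log2 scale (limma adjusted p = 0.0223). GPI10, which adds the third mannose, had 0.11, -0.08 and -0.42. GPI18 had the closest arrays of the 10 genes that passed.

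The last additions are ethanolamine phosphates. GPI13, which attaches the one later used to join the protein, had 0.33, 0.18 and 0.63 (limma adjusted p = 0.104). GPI11, which assists Gpi13, had 0.25, 0.93 and 0.60, a mean of 0.60 ± 0.34 and a 1.51-fold ratio (limma adjusted p = 0.0401). Its arrays spread more widely than those of GPI1. Among genes outside the 55, MCD4, which adds ethanolamine phosphate to the first mannose, rose by 0.79 ± 0.23 (limma adjusted p = 0.0133). LAS21, which adds it to the second mannose, had 0.49, 0.66 and 0.83 (limma adjusted p = 0.0192), and is named here because of these values.

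The 3 listed subunits of the transamidase did not pass. GPI8, its catalytic subunit, had 0.12, -0.27 and -0.14, GPI16 had -0.71, 0.07 and 0.09, and GPI17 had 0.43, 0.19 and -0.09. Each had arrays on both sides of 0, and array 1 of GPI16 stood far below the other two. GAB1, a further subunit outside the 55 genes, had 0.48, 0.84 and 0.77 and rose by 0.70 ± 0.19 (limma adjusted p = 0.0180). GAA1, another subunit outside the 55 genes, had a mean of 0.24 ± 0.25, with array 2 at -0.03. It did not pass (limma adjusted p = 0.291).

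Like calls over all tested genes, those of GPI genes depended on which arrays were used. Without replicate 1 those of GPI1, GPI14, GPI15 and GPI18 were lost (limma adjusted p of 0.118, 0.299, 0.150 and 0.145, the highest over their alternatives), and without replicate 2 those of GPI1, GPI11, GPI14, GPI15 and GPI18 (0.0693, 0.151, 0.0631, 0.0640 and 0.0597). GPI11 was also lost without replicate 3 (0.0637) and with array weights (0.0519), and GPI14 with the high-power scan alone for array 2 (0.0646). The lowest adjusted p over the alternatives were 0.0126 for GPI1, 0.0231 for GPI11, 0.0108 for GPI14, 0.00709 for GPI15 and 0.00948 for GPI18. Without replicate 3, GPI1, GPI14, GPI15 and GPI18 passed (0.0461, 0.0415, 0.0136 and 0.0380), as did GPI11 without replicate 1 (0.0392). The means kept their sign in these fits and some hardly moved: without replicate 1, that of GPI1 was 0.61 and that of GPI18 was -0.57. Of all tested genes, 11.5% rose and 12.0% fell as reported. These shares were 6.26% and 5.72% without replicate 1, 5.72% and 4.52% without replicate 2, and 11.9% and 13.2% without replicate 3. Fits without a replicate have fewer arrays for every gene.

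**Figure D3:**
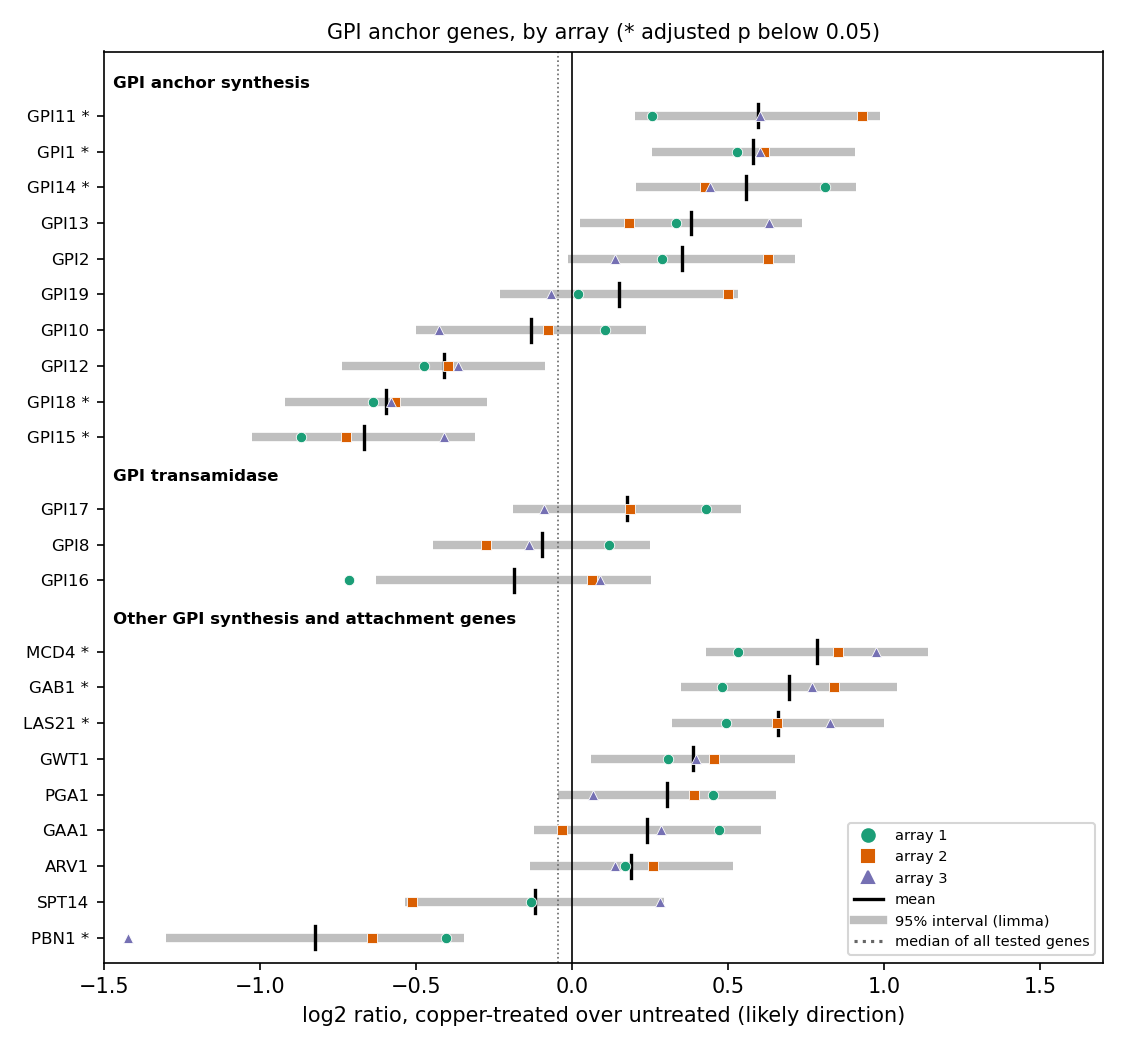
Log2 ratios (horizontal axis, copper-treated over untreated) of GPI anchor genes: the 10 synthesis genes and 3 transamidase genes of the list, and below them other genes of GPI synthesis and attachment. Points are the 3 arrays, black bars means, grey bars 95% intervals from limma, and asterisks an adjusted p below 0.05. Of the 10 synthesis genes, GPI11, GPI1, GPI14, GPI13 and GPI2 lie to the right of 0 on all arrays and GPI12, GPI18 and GPI15 to the left.

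A further 48 genes of these pathways were listed for comparison. Of the 44 on the array, 43 were tested, 7 rose (16.3%, against 11.5% of all tested genes) and 1 fell (2.3%, against 12.0%), with a median of 0.16. SRT1, a prenyltransferase of dolichol synthesis, held a value on array 3 alone. DFG10, the reductase that completes dolichol, had the largest rise, with 0.78, 1.51 and 0.57 and a mean of 0.95 ± 0.49 (limma adjusted p = 0.0166). The value of DFG10 on array 2 came from the high-power scan alone. DFG10 passed in 13 of 13 alternatives, but its mean was 0.675 without replicate 2 (limma adjusted p = 0.048, the highest of them). BST1, which removes the acyl chain from the inositol of finished anchors, rose by 0.71 ± 0.18 (limma adjusted p = 0.0171). The single fall was PBN1, which encodes a partner of the GPI14 product. It had -0.41, -0.64 and -1.42, so that GPI14 stood above 0 and PBN1 below 0 on every array. PBN1 fell by 0.82 ± 0.53 (limma adjusted p = 0.0271), a call lost when replicate 2 (0.0515) or replicate 3 (0.0651, with a mean of -0.52) was left out, in a range over 14 alternatives that began at 0.00236. The calls of GAB1 and LAS21 were lost without replicate 2 (0.0608 and 0.0556), and that of BST1 without replicate 1 (0.123), in ranges that began at 0.00806, 0.00733 and 0.00513. The remaining rises, named after their values were seen, were PMI40, the isomerase that feeds mannose into these pathways (0.65 ± 0.22, limma adjusted p = 0.0230), and MNT4, a Golgi mannosyltransferase gene (0.48 ± 0.07, limma adjusted p = 0.0434). PMI40 lost its call when replicate 1 (0.0939) or replicate 3 (0.0601) was left out, in a range that began at 0.00781, whereas MNT4 passed in 8 of 14 alternatives only. MNT4 was lost without any one of the replicates (0.260, 0.0852 and 0.0945), with the mean of both scans for array 3 (0.0536), with all 5 scans (0.0643) and with genes on at least 2 arrays (0.0511), in a range that began at 0.0196.

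Ratios on these arrays differ with gene length, so the genes were also compared by length. The 8 shortest genes of the list, from 111 to 764 bases, had a median log2 ratio of 0.37 and held 3 rises and 1 fall. Among all tested genes of up to 798 bases the median was 0.10, 20.2% rose and 8.98% fell. The 37 genes of middle length, from 804 to 1851 bases, had a median of 0.14 with 3 rises and 1 fall. Among all tested genes from 799 to 1860 bases the median was -0.06, 10.1% rose and 13.4% fell. The 9 longest, from 2232 to 3537 bases, had a median of 0.40 with 2 rises and 0 falls. Among all tested genes longer than 1860 bases the median was -0.11, 5.73% rose and 12.2% fell. Medians over all genes thus went down from short to long, and those of the list did not keep that order. Spearman's rho between length and mean log2 ratio was 0.129 over the 54 genes and -0.162 over all 4824, both as descriptions across genes of the same arrays.

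The long end of the list is mostly the PMT family. All 6 PMT genes lie between 2232 and 2454 bases. Their median of 0.44 and their 2 rises stand against a median of -0.06 and 7.51% rises among the 173 tested genes in that range, themselves included. MNN1, MNN4 and GPI13 are the other long genes, with means of 0.45, 0.27 and 0.38. The short end is led by the oligosaccharyltransferase: OST4 spans 111 bases, OST2 393 and OST5 410, a span that includes an intron, and these are the 3 highest means of the complex.

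With ratios corrected for length by a loess fit on each array, 13 of the 54 genes rose and 2 fell, against 11.5% and 10.9% of all tested genes, and the list median was 0.25. Of the 10 calls, 9 were kept. PMT1, PMT3, KTR1, MNN1, ALG7 and GPI13 passed in addition, with corrected means of 0.50, 0.57, 0.55, 0.54, 0.53 and 0.48. PMT2 went to 0.95 and PMT5 to 0.77, ALG12 to 0.96, and OST5 to 0.50 (limma adjusted p = 0.0377). OST4 lost its call and changed sign, with a corrected mean of -0.19 (limma adjusted p = 0.354, the highest of 14 alternatives, which began at 0.00351). Only 5 tested genes are as short as 150 bases, and 3 are shorter than OST4. The median log2 ratio of those 5, OST4 itself included, was 0.51, lower than the 1.07 that the fit subtracted at the length of OST4. The correction is therefore poorly held by data there.

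**Figure D4:**
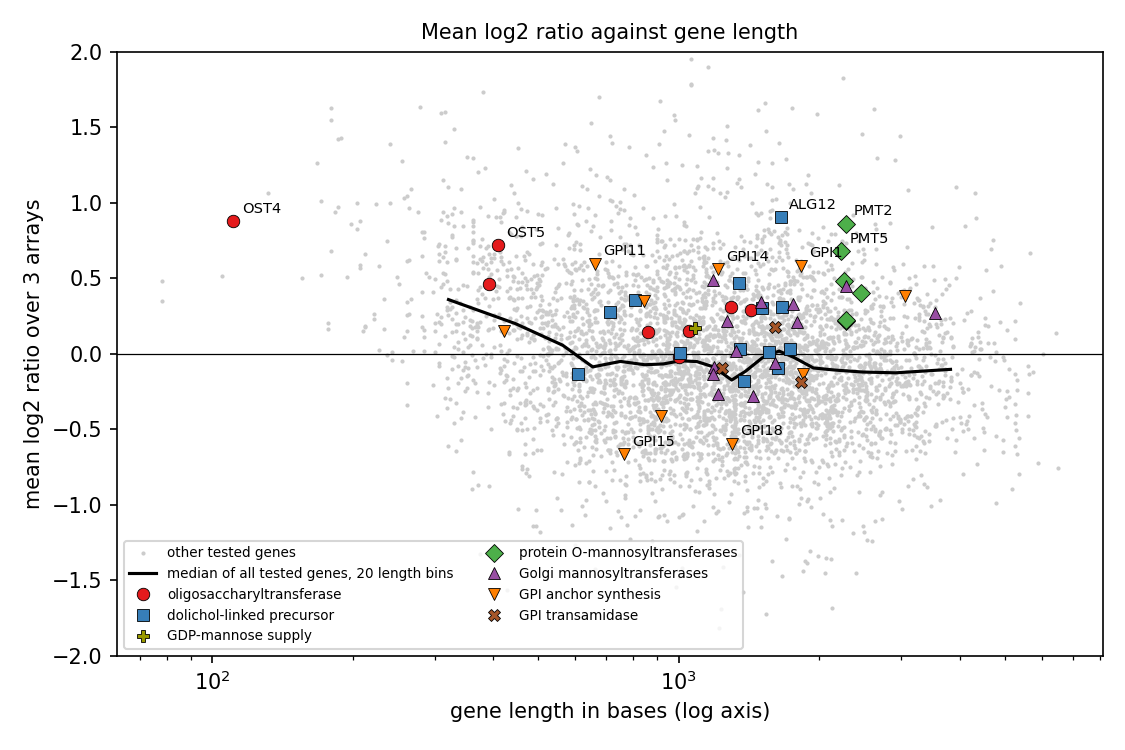
Mean log2 ratio over 3 arrays (vertical axis) against gene length in bases (horizontal log axis) for the 54 genes, coloured by role, over the other tested genes in grey; genes outside the vertical range or under the legend are not seen. The black line joins the medians of all tested genes in 20 bins of length. It is highest at the short end and lies near or below 0 elsewhere, while the PMT genes, from 2232 to 2454 bases, and OST4 at the short end both stand above 0.

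The scans of one array gave similar ratios for these genes. On array 2, 47 of the genes held both a high- and a low-power value, which differed by a median of 0.11 in size and by at most 0.39, for GPI14. On array 3, whose low-power scan was not used, 52 held both, with a median difference of 0.10 in size and a largest of 0.35, for PMT3. The low-power scan of array 2 held 48 of the 54 genes.

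Calls across processing settings separate the genes further. ALG12 and PMT2 passed in all 14 alternative fits, and the other 8 called genes lost their call in at least 1 of the fits. A further 8 genes passed in some alternatives only: KTR1, PMT3, ALG7, OST2, MNN1, PMT1 and GPI13 upward and GPI12 downward. In the fits that added them, 11.5% to 16.5% of all genes rose and 10.4% to 17.8% fell, against 11.5% and 12.0% as reported. How many of all genes passed in an alternative only was not counted.

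**Figure D5:**
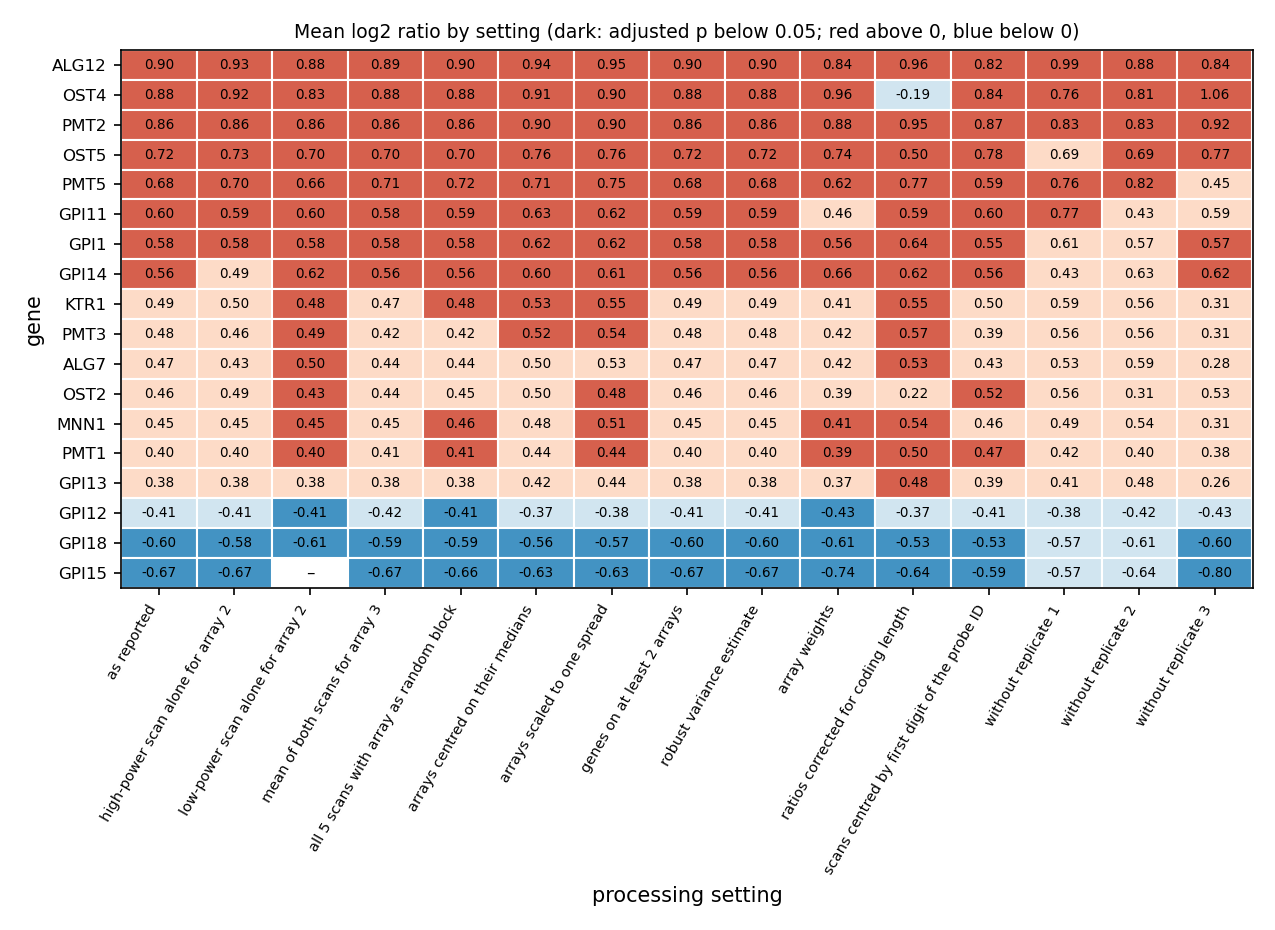
Mean log2 ratio of the 18 genes that passed an adjusted p of 0.05 in at least 1 setting (rows), as reported and under each alternative (columns). Dark cells passed, pale cells did not, red marks means above 0 and blue means below 0, and a dash marks a gene without enough values. The rows of ALG12 and PMT2 are dark throughout, and OST4 turns pale blue only where ratios were corrected for length.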

How the data were processed

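The authors deposited log2 ratios per spot after LOWESS normalization on spots whose flag was 0, per the labels. The base of the logarithm was read from the values, whose lowest, -6.64, is the log2 of 0.01. No source used here names the scanner, the image software or a background correction. Each array was 1 replicate: the single scan of array 1, the mean of the high- and low-power scans of array 2 (or the one present), and the high-power scan of array 3, whose low-power data the series description sets aside. Of 6912 probes, 5446 had 1 gene symbol, 0 several and 1466 none. All 5446 identifiers matched the yeast gene table (assembly R64), used for names and lengths only. Of the lengths of tested genes, 97.1% are multiples of 3, so most are coding lengths. Spots of a gene were averaged. The 4824 genes with values on all 3 arrays, of 5379, were fitted together (limma 3.58.1, lmFit then eBayes; R 4.3.3), with scripts tested on simulated data. The length correction was a loess fit of log2 ratio on log2 length per array (span 0.4, degree 1). The rule for named genes took all that passed, all oligosaccharyltransferase subunits, the extremes of each role, and the 4 largest rises and falls among other pathway genes. The rest of the 55 genes, LAS21, SPT14, GWT1, GAA1, PMI40 and MNT4 are named outside that rule, after their values were seen. The 55 genes, the lists and the alternatives were chosen with earlier results of these data known. Promoter motifs were planned but are not analysed here.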

Additional observations from a re-analysis of the deposited data

How the results depend on the processing

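Of the 54 genes, 8 rose and 2 fell as reported. More rose when array 2 was represented by its low-power scan (14 of 48 tested, against 16.5% of all genes tested in that fit), with arrays scaled to a single spread (13, against 14.1%) and with the length correction (13, against 11.5%); the cause was not tested. Requiring a 2-fold change left 0 rises and 0 falls by limma, since no mean reached that size; 19 genes had an unadjusted p under 0.05 (35.2%, against 40.2% of all tested genes). With each replicate left out in turn, 5 to 6 rose and 0 to 2 fell, and the list median lay between 0.124 and 0.258. Among all 4824 genes, 556 rose and 578 fell as reported, 302 (6.26%) and 276 (5.72%) without replicate 1, 276 (5.72%) and 218 (4.52%) without replicate 2, and 573 (11.9%) and 638 (13.2%) without replicate 3. With the low-power scan for array 2, 442 rose and 349 fell of 2686. Fits without a replicate have fewer arrays, and without replicate 1 the prior degrees of freedom were infinite, so all genes shared a single variance. In the other alternatives 7 to 11 of the list rose and 2 to 3 fell, where 9.71% to 15.7% of all genes rose and 9.71% to 17.8% fell; 53 of the list were tested with the high-power scan for array 2, and 54 in the rest. The mean of OST4 reversed with the length correction (-0.190). That of OST6, near 0, reversed with all 5 scans (0.003), centred arrays (0.015), scaled arrays (0.004) and the length correction (0.025), and ran from -0.111 to 0.129 with a replicate left out. That of GPI16 ran from -0.324 to 0.077 with a replicate left out, and was above 0 without replicate 1. GPI15 had no value on the low-power scan of array 2. Each ratio already pairs treated with untreated cells on 1 array, so no further pairing was fitted.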
